A study of Mus musculus with 2 samples.

Results

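Alpha beta T cells in this data set were droplets from the mouse small intestine that held the message of the T cell receptor alpha chain constant region, Trac, and lacked that of the delta chain, Trdc. They were chosen by counts alone: at least 500 genes detected and at most 10% mitochondrial UMIs (unique molecular identifiers, each 1 captured RNA molecule), at least 1 UMI of Cd3e, at least 3 UMIs over Cd3e, Cd3d and Cd3g together, at least 1 UMI of Trac and 0 of Trdc. The rule kept 94 cells of 9251 in the IL-23 stimulated library and 155 of 10790 in the unstimulated library, which makes 249 of 20041 cells. That is 1.02% (95% exact binomial interval 0.822 to 1.24%) and 1.44% (1.22 to 1.68%) of the cells kept. Levels of Trac, Trdc and the CD3 chains therefore chose these cells and are not results.

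Both libraries were made from live eGFP+ leukocytes of Il23r-eGFP mice, in which the reporter marks cells that use the Il23r locus, sorted after Peyer's patches and epithelium had been removed. The IL-23 stimulated library came from cells given recombinant mouse IL-23 for 2 h. The unstimulated library carries the treatment label Unstimulated. The protocol text of both libraries mentions the stimulation, and the labels give neither the number and age of the mice nor whether unstimulated cells were held in culture as long. Each condition is 1 library, so no difference between them has a replicate check, and no p-value was computed. Intervals given for levels and shares cover counting error only. They do not hold the spread between animals. Those of levels and ratios do not hold the spread between cells either, where a few cells can carry much of a sum. Stimulation, culture and library cannot be told apart.

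Alpha beta T cells recognise peptides or lipids held by MHC and MHC-like molecules. In the intestine those that carry the IL-23 receptor are known mainly as type 17 cells, which make IL-17A, IL-17F and IL-22 for barrier defence. IL-23 binds a receptor of Il23r and Il12rb1 and signals through JAK2, TYK2 and STAT3. Gamma delta T cells and group 3 innate lymphoid cells of the gut are known to answer the same cytokine.

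The kept cells held 61359895 UMIs in the IL-23 stimulated and 58148889 in the unstimulated library. The members carried 907387 UMIs in the IL-23 stimulated library and 1224164 in the unstimulated library, with medians of 8525 and 6813 UMIs per cell. Gamma delta T cells, defined by the same CD3 conditions with at least 1 UMI of Trdc and 0 of Trac, numbered 213 and 215, with medians of 7203 and 6202 UMIs. Levels below are UMIs summed over the cells of a class and library, per 1000000 of their UMIs (CPM). The libraries shared 29 cell barcodes, which took in 2 stimulated and 1 unstimulated member. Of all cells with the CD3 chains, alpha beta members made up 23.8% (19.7 to 28.3%) in the IL-23 stimulated library and 34.6% (30.2 to 39.2%) in the unstimulated library. A further 75 and 58 CD3+ cells held neither Trac nor Trdc, and 13 and 20 held both, and none of these entered either class. Fewer alpha beta cells and less Trac message per cell cannot be told apart in these shares.

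The label was checked against genes that the rule did not use. The 6 listed markers of the class other than Trac summed to 1646 CPM in stimulated and 1267 CPM in unstimulated members, against 64.6 and 80.1 CPM in gamma delta T cells and 13.4 and 13.3 CPM in cells with no CD3 chain UMI. The 10 listed markers of gamma delta T cells other than Trdc summed to 177 and 261 CPM in members, against 1376 and 2022 CPM in gamma delta T cells. The alpha beta markers were proposed from the same data and are not independent evidence. Delta chain V segments, which the rule did not use, were seen in 1 of 94 and 1 of 155 members, against 126 of 213 and 149 of 215 gamma delta T cells. Alpha chain V segments were seen in 10 of 94 and 15 of 155 members, against 3 of 213 and 1 of 215 gamma delta T cells. Gamma chain V segments were more frequent in members than alpha chain ones, at 17 of 94 and 42 of 155 cells, with Trgv2 the most abundant. They were seen in 80 of 213 and 114 of 215 gamma delta T cells. Beta chain V segments were seen in 16 of 94 and 23 of 155 members, against 7 of 213 and 3 of 215 gamma delta T cells.

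Markers of other cells were present in the members to different degrees. The summed level of 11 innate lymphoid cell markers was 1351 CPM in stimulated and 1084 CPM in unstimulated members. It was 2312 and 1959 CPM in gamma delta T cells, and 2670.0 and 2538.8 CPM in cells with no CD3 chain UMI. Kit, the stem cell factor receptor of innate lymphoid cells, had UMIs in 29 of 94 and 68 of 155 members, at 62.8 and 152 CPM. Kit also had UMIs in 78 of 213 and 105 of 215 gamma delta T cells. Markers of B and plasma cells summed to 18.7 and 29.4 CPM, of macrophages to 6.61 and 18.8 CPM, of dendritic cells to 8.82 and 22.9 CPM and of epithelium to 15.4 and 7.35 CPM, and the 6 mast cell markers were at 0 in both libraries. The part of such RNA in each result was not tested. Of genes with at least 200 CPM in cells with no CD3 chain UMI, the one lowest in members relative to those cells is given. It was chosen by its value in each library. Such shares differed by gene and library, so the lowest sets no bound for other genes. Relative to cells with no CD3 chain UMI, Cxcl2 stood at 10.6% in unstimulated members. In B-lineage cells it stood at 48.2% in the stimulated and 0.628% in the unstimulated library. Cxcl2 stood in stimulated members at 14.3 CPM, 4.83% of its level in those cells, and Nupr1 stood in unstimulated members at 42.5 CPM, 9.13% of its level there.

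At the edges of the rule, 6 stimulated and 12 unstimulated members had exactly 3 CD3 UMIs, while 3 and 6 cells had 2 and stayed outside. Trac rested on a single UMI in 26 stimulated and 56 unstimulated members. Among those single-UMI cells, Cd28 was detected in 46.2% and 62.5%, against 82.4% and 74.7% of members with 2 or more Trac UMIs. Another 8 and 15 cells met every condition but had no Cd3e UMI.

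Most members with a co-receptor had Cd4, which binds MHC class II. Cd4 was detected in 52 of 94 stimulated members, 55.3% (44.7 to 65.6%), and in 79 of 155 unstimulated members, 51.0% (42.8 to 59.1%). Cd4 was seen in 4 of 213 and 0 of 215 gamma delta T cells, and B-lineage cells, which should lack it and had medians of 9248 and 8112 UMIs, in 0 of 16 and 1 of 31. Thinned to 3000 UMIs per cell, with 1 and 4 members too shallow to enter, the shares of members with Cd4 were 32.3% and 29.1%. The summed level of Cd4 was 128 CPM (106 to 153) in stimulated and 125 CPM (106 to 146) in unstimulated members. Cd4 thus had the same level and share in both libraries to within counting error, and its share depended on depth.

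The CD8 co-receptor was almost absent. Cd8a, its alpha chain, was detected in 1 of 94 stimulated members (0.0269 to 5.79%) and 3 of 155 unstimulated members (0.401 to 5.55%), which is the level of gamma delta T cells, at 1 of 213 and 3 of 215. Cd8b1, its beta chain, was detected in 1 and 4 members. Itgae, the CD103 integrin chain typical of intraepithelial T cells, had a UMI in 1 member of each library.

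Foxp3, the factor of regulatory T cells, was seen in 0 of 94 stimulated members (upper bound 3.85%) and 2 of 155 unstimulated members, 1.29% (0.157 to 4.58%), with 1 UMI in each of those 2 cells. A pair of genes that regulatory and activated T cells share had UMIs in many members: Ctla4, an inhibitory receptor for B7 ligands, in 81.9% and 78.7% of members, and Tnfrsf4, the OX40 co-stimulatory receptor, in 58.5% and 40.0%. Il21, the follicular and type 17 helper cytokine, had 1 UMI in each of 4 stimulated members, 4.26% (1.17 to 10.5%), and none in 155 unstimulated members (upper bound 2.35%), with 0 of 213 and 0 of 215 gamma delta T cells. After thinning, 1 of 93 stimulated members still had Il21. No Il21 was seen in B-lineage cells.

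Zbtb16, which encodes PLZF, the factor of innate-like T cells, was detected in 18 of 94 stimulated members, 19.1% (11.8 to 28.6%), and 31 of 155 unstimulated members, 20.0% (14.0 to 27.2%). The shares were 43.7% and 45.1% in gamma delta T cells. Thinning, drawn once, left 5.38% of stimulated and 14.6% of unstimulated members with Zbtb16, so both shares were lower at that depth. In B-lineage cells Zbtb16 was detected in 1 of 16 and 8 of 31. The unstimulated B-lineage share, 25.8%, was above that of unstimulated members although the summed level in B-lineage cells, at 8.17 and 22.6 CPM, was below the 57.3 and 64.5 CPM of members. The part of RNA from other cells in the share of unstimulated members with Zbtb16 was not tested. Cells with no CD3 chain UMI held Zbtb16 at 65.8 and 66.2 CPM. Trav11 and Trav1, V segments that the invariant receptors of NKT and MAIT cells use, were at 0 in members. Any alpha chain V segment was seen in only 10 of 94 and 15 of 155 members, so their absence says little.

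**Figure D1:**
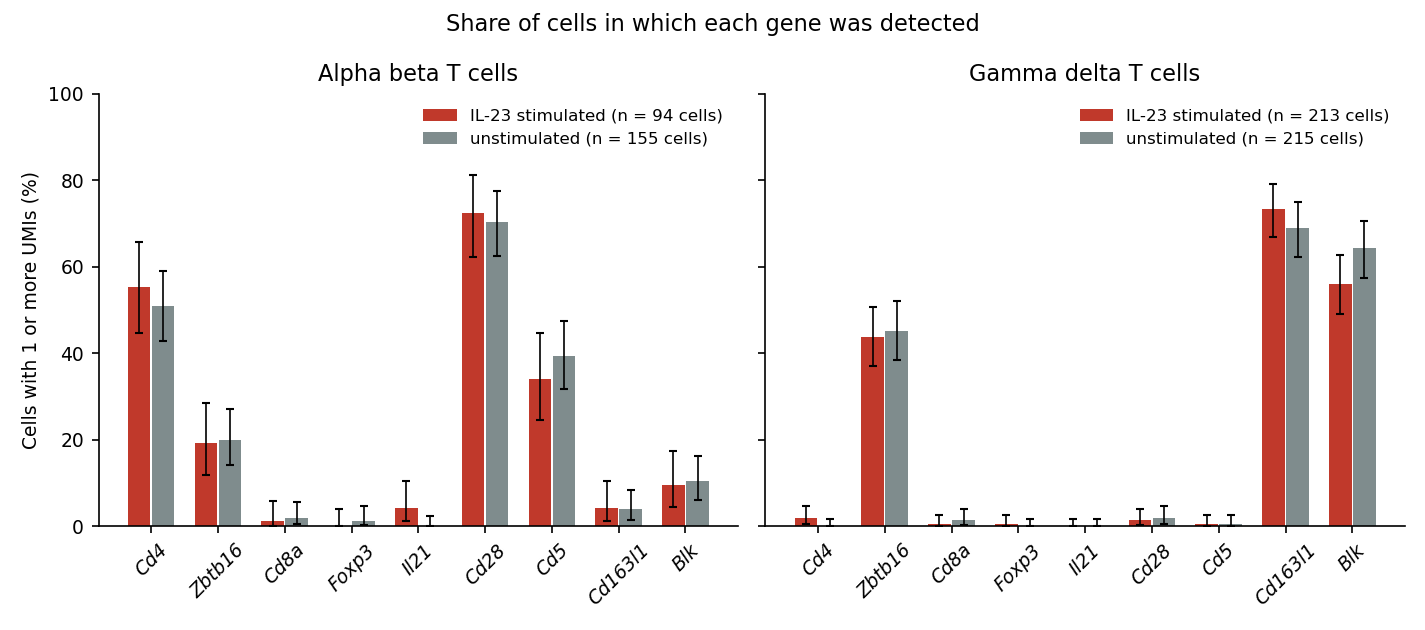
Share of cells with 1 or more UMIs of each gene (vertical axis, percent) in alpha beta T cells (left) and gamma delta T cells (right) of the IL-23 stimulated and unstimulated libraries; bars are shares and error lines exact binomial 95% intervals. Cd4, Cd28 and Cd5 stand high on the left, Cd163l1 and Blk on the right, and Cd8a, Foxp3 and Il21 are near 0 in both classes.

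Of the members with Zbtb16, 12 of 18 stimulated and 23 of 31 unstimulated cells had no Cd4 UMI. Among stimulated members Zbtb16 was detected in 6 of 52 cells with Cd4, 11.5%, and 12 of 42 cells without it, 28.6%. Among unstimulated members the counts were 8 of 79, 10.1%, and 23 of 76, 30.3%. The intervals overlapped in the stimulated library (4.35 to 23.4% against 15.7 to 44.6%) and did not in the unstimulated library (4.47 to 19.0% against 20.2 to 41.9%). Cd28, the co-stimulatory receptor of naive and memory alpha beta T cells, was detected in 7 of 18 stimulated members with Zbtb16 (17.3 to 64.3%), against 61 of 76 without it (69.5 to 88.5%). In unstimulated members it was detected in 16 of 31 with Zbtb16 (33.1 to 69.8%) and 93 of 124 without it (66.4 to 82.3%), where the intervals overlapped. The gamma chain constant message Tcrg-C1 stood at 79.8 and 138 CPM in members with Zbtb16, against 44.5 and 37.2 CPM in members without it, and at 442 and 513 CPM in gamma delta T cells.

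Set against gamma delta T cells, the members were marked by receptors of T cell adhesion and co-stimulation. Of 5263 genes measured in both classes in both libraries (at least 20 CPM in 1 or both classes and at least 50 UMIs over both), with the rule's own genes left out, 203 were at least 1.5-fold higher in alpha beta T cells in both libraries, 3.86%, and 209 were at least 1.5-fold lower, 3.97%. The 10 highest by rule were Cd6, Cd2, Gm8369, Cd5, Ifi27l2a, Cd28, Slfn1, Cd4, Trat1 and Tnfsf8. Cd6, a receptor at the contact between T cell and presenting cell on chromosome 19 (10789341 to 10830058, GRCm38), stood at 101 CPM in stimulated and 158 CPM in unstimulated members, against 0 UMIs in gamma delta T cells of either library. With 3 UMIs put in place of the 0 of each gamma delta library, Cd6 was 57.6-fold and 78.1-fold higher in alpha beta T cells. Cd5, a related gene nearby on chromosome 19 and an inhibitor of receptor signalling, stood at 112 and 111 CPM against 0.587 and 0.673 CPM. Cd28 stood at 325 and 294 CPM in members, against 2.35 and 3.36 CPM in gamma delta T cells. Cd2, the receptor for CD48 in mice, stood at 242 and 147 CPM, against 0.587 and 0.673 CPM, each of these 1 UMI.

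Ligands and adaptors of T cell help followed the same order. Tnfsf8, the CD30 ligand, stood at 557 and 352 CPM in members, against 14.1 and 15.5 CPM in gamma delta T cells. Trat1, an adaptor of the receptor complex, stood at 82.7 and 102 CPM against 2.93 and 4.04 CPM. Tnfrsf4 stood at 339 and 185 CPM against 3.52 and 8.07 CPM. Cd40lg, the CD40 ligand by which helper T cells act on B cells, stood at 69.4 and 60.4 CPM against 8.22 and 2.02 CPM. Among 10 co-stimulatory receptor and ligand genes tested, 5 were higher in members in both libraries (Cd28, Tnfrsf4, Cd40lg, Cd2 and Slamf1) and 1, Tnfrsf9, was higher in gamma delta T cells. Among 12 genes of the receptor complex that could be tested, 7 were higher in members (Cd4, Lck, Lat, Cd5, Cd6, Cd2 and Cd28) and Cd247, the zeta chain, was higher in gamma delta T cells. Of all 5263 genes tested, 3.86% were higher in members in both libraries and 3.97% were higher in gamma delta T cells. Cd28, Tnfrsf4, Cd2 and Cd6 are also markers proposed from the same data, so their part in these counts is not independent evidence.

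Homing receptors differed as well. Ccr4, a receptor of type 2 and skin-homing T cells, stood at 63.9 and 73.5 CPM in members against 5.28 and 3.36 CPM in gamma delta T cells. Ccr6, the receptor for CCL20 on type 17 cells, stood at 114 and 102 CPM against 18.8 and 19.5 CPM. Of 8 gut homing genes tested, 3 were higher in members (Itga4, S1pr1 and Ccr6) and 1, Gpr183, was higher in gamma delta T cells. The shares over all genes tested were 3.86% and 3.97%.

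Genes lower in the members were led by Cd163l1, a scavenger receptor of IL-17-producing gamma delta T cells, at 4.41 and 17.2 CPM against 288 and 325 CPM in gamma delta T cells. Blk, a SRC-family kinase, stood at 17.6 and 25.3 CPM against 139 and 205 CPM. Pdcd1, the PD-1 receptor, stood at 29.8 and 31.0 CPM against 145 and 277 CPM. The others of the 10 lowest were Edil3, Ank2, Auts2, Abi3bp, Pcp4, Jag1 and Cd93. Some of these genes were also high outside the T cells: cells with no CD3 chain UMI held Pcp4 at 396 and 523 CPM and Cd93 at 166 and 214 CPM.

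Lists of helper and effector programmes were split between the classes. Over all genes tested, 3.86% were higher in members and 3.97% higher in gamma delta T cells in both libraries. Of 15 type 17 genes tested, Il17a, Il17f, Ccr6 and Maf were higher in members in both libraries, and Il22, Il23r and Tmem176a were higher in gamma delta T cells. Of 14 STAT3 targets, 1 (Il21r) was higher in members and 4 (Socs2, Stat3, Pim2 and Cebpb) were higher in gamma delta T cells. Of 13 receptor and signalling genes of IL-23 and related cytokines, 3 were higher in members, among them Il21r and Jak2, and Il23r, Il2rb and Stat3 were higher in gamma delta T cells. Of 11 regulatory T cell genes Tnfrsf4 was higher in members, with Ikzf2 and Tnfrsf9 higher in gamma delta T cells. Il21r and Tnfrsf4 are also markers proposed from the same data. Glycolysis genes had 0 of 12 higher in members and 2 (Slc2a1 and Pfkp) higher in gamma delta T cells.

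**Figure D2:**
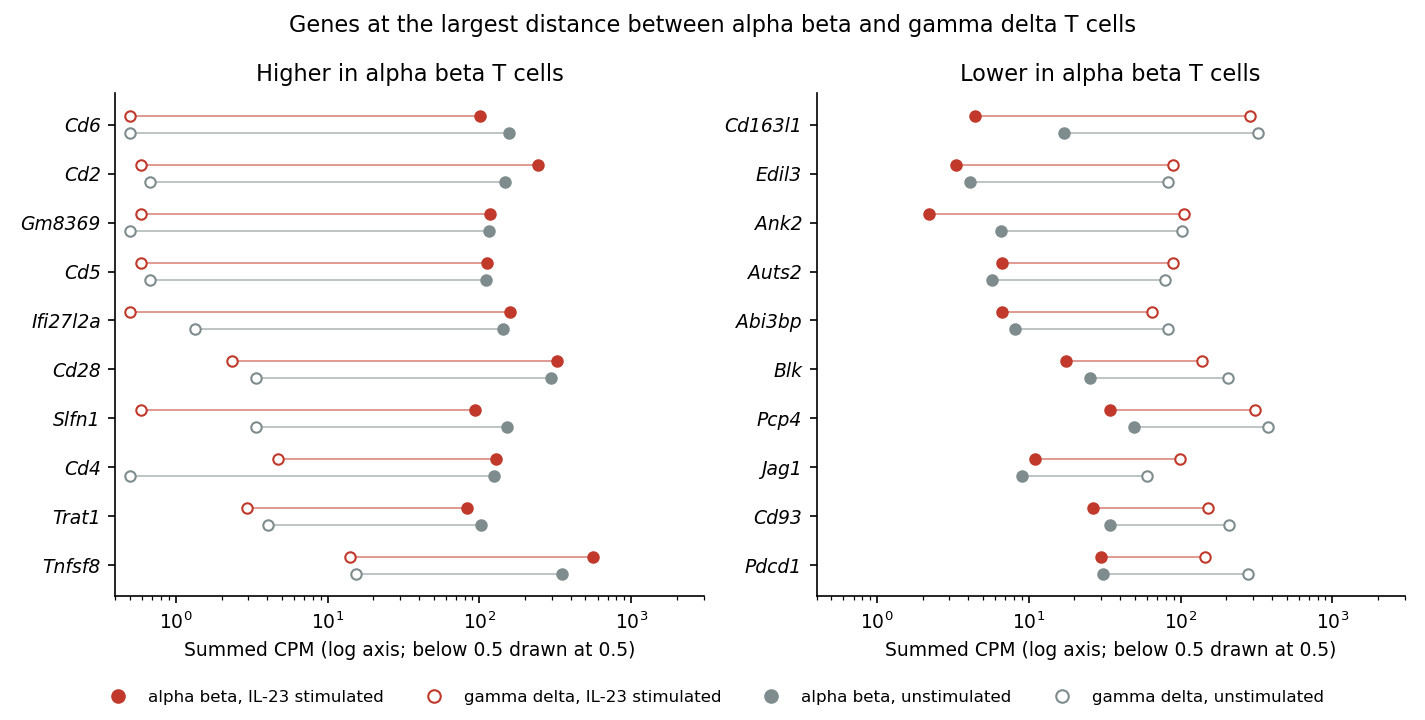
Summed CPM (log axis) of the 10 genes highest and the 10 lowest in alpha beta over gamma delta T cells; filled points are alpha beta and open points gamma delta T cells, in both libraries, with values below 0.5 CPM drawn at 0.5. Each line joins the classes of 1 library, and the order of the classes was the same in both libraries for all 20 genes, as the rule for naming them required.

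Several type 17 genes had UMIs in members of both libraries. Rora, a retinoid-related orphan receptor of type 17 cells, stood at 1266 CPM in stimulated and 1274 CPM in unstimulated members. Maf, a factor of IL-17 and IL-10 producing T cells, stood at 741 and 703 CPM, against 328 and 429 CPM in gamma delta T cells. Il23r was detected in 59 of 94 stimulated members, at 149.9 CPM (126 to 177), and in 73 of 155 unstimulated members, at 89.9 CPM (73.9 to 108). Gamma delta T cells held more Il23r, at 268 and 155 CPM, and B-lineage cells less, at 24.5 and 30.1 CPM.

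Il17a, on chromosome 1 (20730905 to 20734496), was detected in 34 of 94 stimulated members, at 645 CPM (594 to 699), and in 37 of 155 unstimulated members, at 418 CPM (383 to 456). Gamma delta T cells had 301 and 53.8 CPM of Il17a, and cells with no CD3 chain UMI had 306 and 25.3 CPM. The unstimulated members thus stood 7.73-fold above unstimulated gamma delta T cells, and stimulated members 2.14-fold above stimulated gamma delta T cells. The ratio of stimulated to unstimulated members was 1.54-fold (1.37 to 1.74 by counting error), against 5.56-fold in gamma delta T cells. These sums rested on few cells: 1 stimulated member held 171 of 585 Il17a UMIs and 1 unstimulated member held 221 of 512. Without the top cell of each library the Il17a level was 462 CPM in stimulated and 241 CPM in unstimulated members.

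The Il17a ratio also depended on which members were counted. With Cd4, stimulated members had 458 CPM (402 to 519) and unstimulated members 554 CPM (500.1 to 613), so the order turned round with overlapping intervals. Without Cd4 they had 904 and 243 CPM. Among the 65 and 87 members with no Kit UMI the log2 ratio was -0.79, against 0.62 for all members. A Kit UMI was found in 17 of 34 stimulated members with Il17a and 12 of 60 without, and in 14 of 37 and 54 of 118 unstimulated members. No direction of Il17a between the libraries is therefore given for alpha beta T cells as a whole. Shares gave 24 of 52 stimulated and 22 of 79 unstimulated members with Cd4 that had Il17a, and 10 of 42 and 15 of 76 without Cd4.

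Il17f, close to Il17a on chromosome 1 (20777146 to 20790617), stood at 569 CPM (521 to 620) in stimulated and 344 CPM (312 to 378) in unstimulated members, against 322 and 52.5 CPM in gamma delta T cells. Cells with no CD3 chain UMI held 738 and 95.03 CPM, so in the stimulated library members stood below them. The log2 ratio of Il17f, 0.73, was as low as 0.12 over the alternatives. Il17f was detected in 25 of 34 stimulated members with Il17a and 16 of 60 without, and in 21 of 37 and 14 of 118 unstimulated members. The cells with Il17a were somewhat deeper, with medians of 8977.5 and 8277 UMIs, against 8328 and 6588.5 UMIs in members without it.

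Il22, a barrier cytokine on chromosome 10 (118204942 to 118210047), stood at 7311 CPM (7136 to 7489) in stimulated members and 1049.7 CPM (993 to 1109) in unstimulated members. It was detected in 91 of 94 stimulated members and 64 of 155 unstimulated members. Levels were higher in gamma delta T cells, at 13156 and 1767 CPM, and in cells with no CD3 chain UMI, at 26662 and 5845 CPM. B-lineage cells, which are not a source of IL-22, held 2989.6 and 1444 CPM and had it in 13 of 16 and 15 of 31 cells. Both the share and the summed level of unstimulated members lay under those of unstimulated B-lineage cells. Relative to cells with no CD3 chain UMI, Il22 stood at 27.4% in stimulated and 17.96% in unstimulated members. The 4.83% of Cxcl2 and the 9.13% of Nupr1 set no bound for Il22. The unstimulated sum was uneven: 5 cells held 55.3% of its 1285 UMIs, 1 of them 246, and 23 cells had 10 or more. The part of RNA from other cells in it was not tested. The ratio of stimulated to unstimulated members was 6.96-fold (6.56 to 7.40 by counting error alone). Without the top cell of each library the log2 ratio of Il22 was 2.94, against 2.80 with them.

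**Figure D3:**
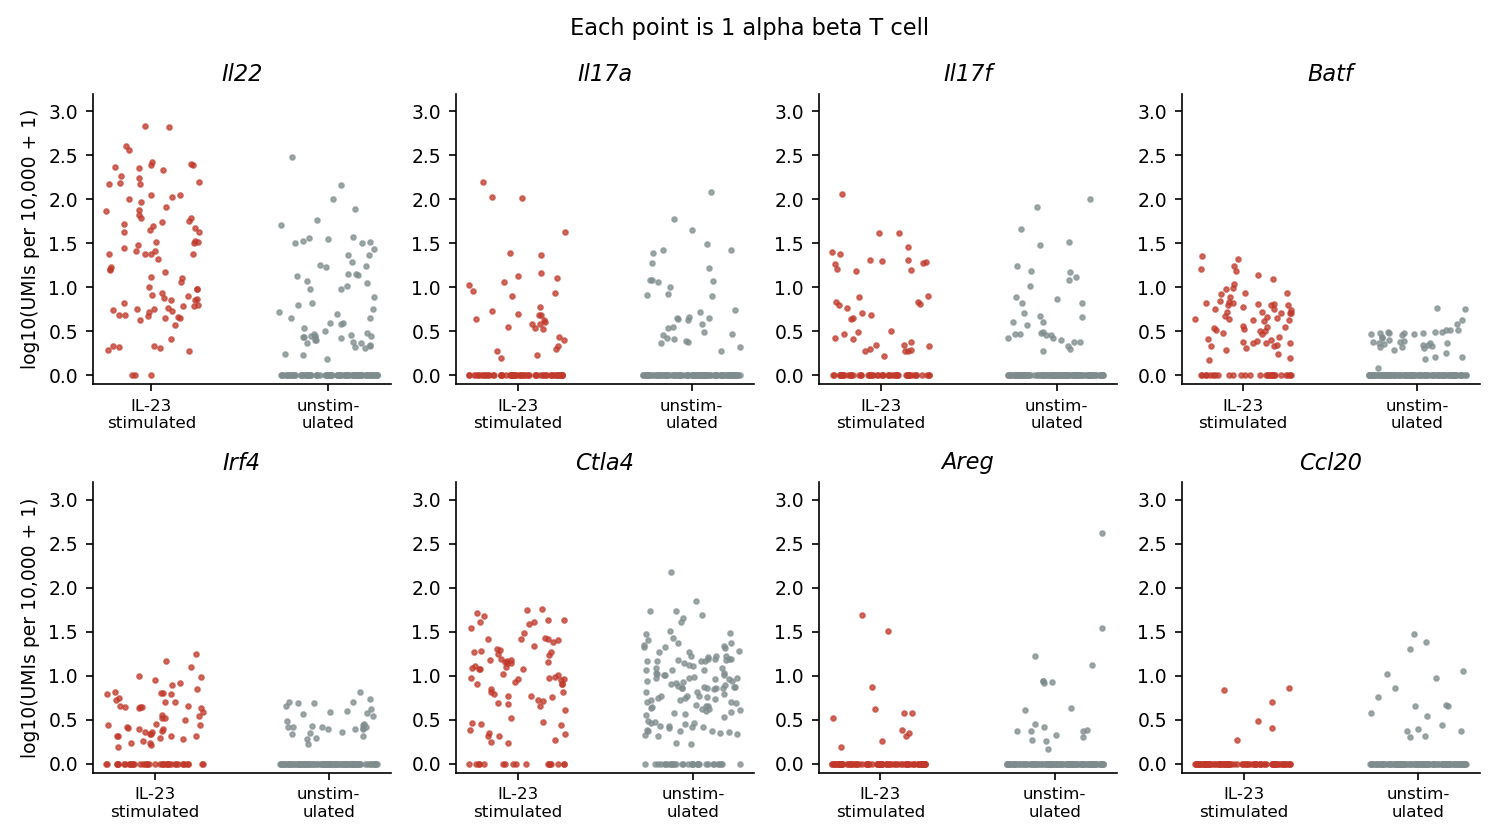
UMIs of 8 genes in single alpha beta T cells, per 10000 UMIs of the cell, as log10 of the value plus 1; IL-23 stimulated cells are left of unstimulated cells. Il22 and Batf had UMIs in 91 and 66 of 94 stimulated members, Il17a and Il17f in 34 and 41, and 1 unstimulated cell stands far above the others in Areg.

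Between IL-23 stimulated and unstimulated members, the 12 genes furthest apart upward by the naming rule were Elovl6, Gadd45g, Batf, Sbno2, Il22, Stom, Bcl3, Il1r1, Prdm1, Irf4, Arid5b and Mki67. Myc, 4.23-fold higher, was left out because it lay under the rule's limit of 50 CPM. Of 5073 measured genes, 253 were at least 1.5-fold higher in stimulated members, 4.99%, and 394 at least 1.5-fold lower, 7.77%. Of those, 132 and 142 also had Poisson intervals that did not overlap, 2.6% and 2.8% of the genes measured. The median log2 ratio of all measured genes was -0.06. Centred on that median, the counts were 307 and 304, so the higher share of called genes was 50.2% in place of 39.1%. Gamma delta T cells had 6.47% of 5685 measured genes higher and 8.23% lower, and cells with no CD3 chain UMI 3.93% of 5346 higher and 3.22% lower.

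Batf, an AP-1 family factor that works with IRF4 at type 17 genes, stood at 369 CPM (331 to 411) in stimulated and 44.1 CPM (33.1 to 57.6) in unstimulated members, 8.31-fold higher (6.26 to 11.4). It was detected in 66 of 94 and 39 of 155 members, while B-lineage cells held 44.9 and 7.53 CPM and cells with no CD3 chain UMI 525 and 29.9 CPM. Members with Cd4 had 370.2 and 44.98 CPM of Batf and members without Cd4 368 and 43.0 CPM, so the level did not go with Cd4. Irf4, the partner of BATF in T cells, stood at 208 CPM (180 to 240) and 53.1 CPM (41.0 to 67.7), 3.90-fold higher (2.94 to 5.28). Cells with no CD3 chain UMI held only 5.74 and 1.48 CPM of Irf4, so Irf4 in members exceeded its level in those cells. In unstimulated members Irf4 was close to the 52.7 CPM of B-lineage cells, which use it themselves, and above the 13.5 CPM of gamma delta T cells, which reached 188 CPM in the stimulated library.

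Prdm1, which encodes the repressor BLIMP-1, stood at 71.6 CPM in stimulated and 17.97 CPM in unstimulated members, 3.93-fold higher (2.43 to 6.79). Arid5b, a DNA-binding chromatin factor, stood at 283 and 85.8 CPM, 3.29-fold higher (2.62 to 4.18). Bcl3, an NF-kappaB co-regulator, stood at 77.1 and 14.7 CPM, and Sbno2, a co-regulator that STAT3 induces in other cells, at 172 and 22.9 CPM. Elovl6, an enzyme that lengthens long-chain fatty acids, had the highest ratio of the 12, at 126 CPM (104 to 151) and 6.54 CPM (2.82 to 12.9). It was detected in 41 of 94 and 8 of 155 members.

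Gadd45g, a stress-induced regulator of MAP kinase signalling, stood at 223 and 20.4 CPM, and Stom, the membrane protein stomatin, at 73.8 and 13.1 CPM. Il1r1, the receptor for IL-1 that promotes type 17 output, stood at 257 and 63.7 CPM. Several of these genes were also high in B-lineage cells, where Gadd45g stood at 1197 and 499.8 CPM, Sbno2 at 327 and 95.4 CPM, Stom at 306 and 37.7 CPM and Il1r1 at 216 and 42.7 CPM. The part of RNA from other cells in their ratios was not tested. Without the cell that held most UMIs of each gene, the log2 ratios of the 12 genes ran between 1.29 (Mki67) and 4.15 (Elovl6).

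Mki67, the proliferation gene, was the twelfth. It stood at 106 CPM in stimulated and 32.7 CPM in unstimulated members but was detected in 13 cells of each library, and 1 stimulated cell held 41.7% of its UMIs. Its log2 ratio ran between 0.06 and 2.32 over the alternatives. The 8 cycling markers summed to 374 and 312 CPM in members, against 107 and 71.3 CPM in gamma delta T cells. A Mki67 or Top2a UMI was found in 23 of 94 stimulated and 34 of 155 unstimulated members.

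**Figure D4:**
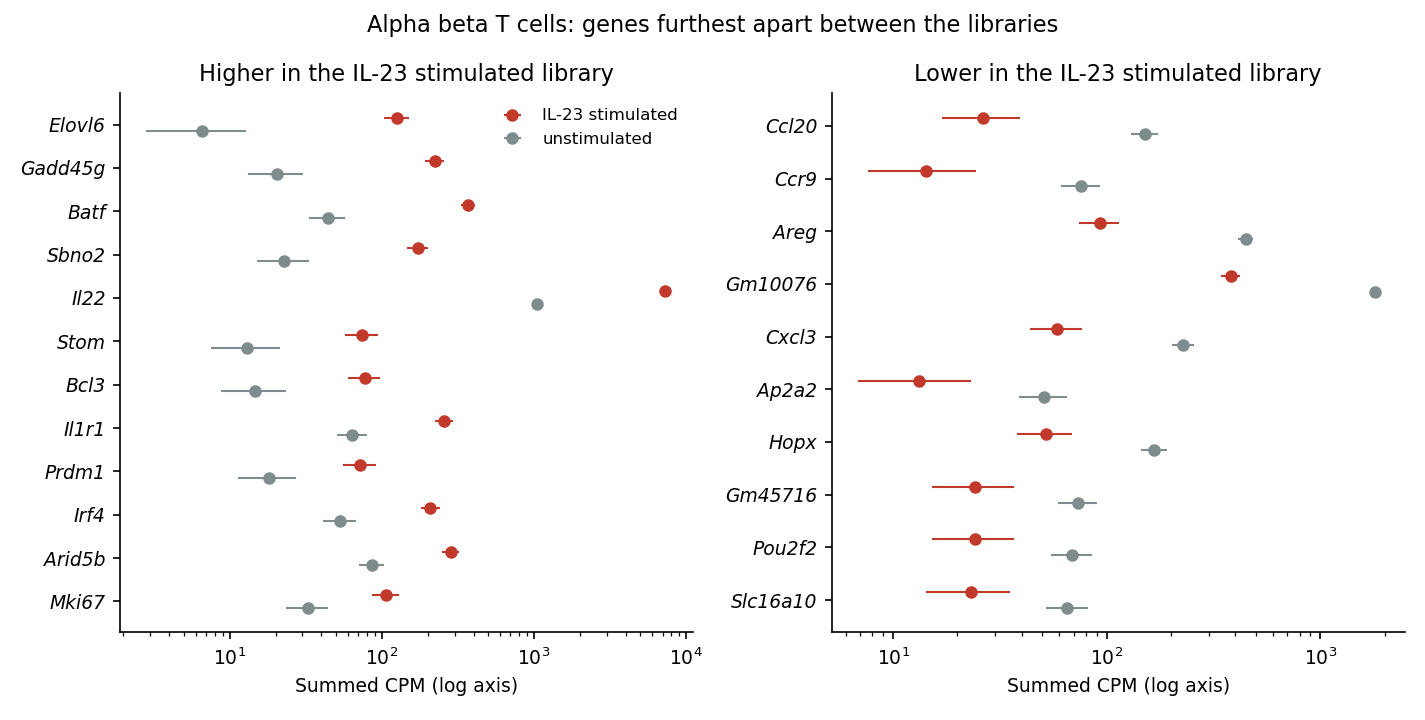
Summed CPM (log axis) in alpha beta T cells of the 12 genes furthest higher and the 10 furthest lower in the IL-23 stimulated library; points are levels and lines Poisson 95% intervals, which cover counting error only. The intervals of each gene do not overlap, as the rule for naming them required; Il22 stands highest and Elovl6 has the widest gap.

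The list of STAT3 target genes was the one most shifted. Of 17 measured, 9 were at least 1.5-fold higher in stimulated members (Socs3, Batf, Bcl3, Pim2, Myc, Ahr, Sbno2, Hif1a and Prdm1) and 0 lower, against 4.99% higher among all measured genes, and the median log2 ratio of the list was 0.64. Socs3, the feedback inhibitor of the receptor, stood at 328 CPM (292 to 368) in stimulated and 103 CPM (85.7 to 123) in unstimulated members, 3.18-fold higher (2.58 to 3.96), with 866 and 289 CPM in B-lineage cells. Ahr, the sensor of dietary indoles, stood at 122 and 50.6 CPM, and Myc at 49.6 and 11.4 CPM. Hif1a, the hypoxia factor, stood at 867 and 556 CPM. The lists were assembled with earlier results of these data known, and their shift is a description.

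STAT factors bind sites of the form TTCNNNGAA, which reads the same on both strands. The 250 bases before each RefSeq start (GRCm38.p6) of the 12 genes named higher in stimulated members, all of them in the table, were searched for it. Those of Socs3 were searched beside them. A match was found for 2 of the 12, Sbno2 and Arid5b, and for Socs3, against 8.13% of all 27025 genes in the table with a match in 1 or more start windows. The matches are shown with the flanking bases in lower case and the 9 matching bases in capitals, read on the gene's strand.
Sbno2, first start, chr10:80102710-80102738, minus strand: gccgcgccccTTCGCAGAAgcggaagtgc
Sbno2, second start, chr10:80101193-80101221, minus strand: ccggctctgcTTCCCGGAAtgcctgtgag
Arid5b, chr10:68278880-68278908, minus strand: aaattgagtcTTCGAGGAAatattaggat
Socs3, chr11:117969502-117969530, minus strand: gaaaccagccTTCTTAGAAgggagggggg
The motifs begin 26, 24, 172 and 154 bases before the start in that order. In GENCODE vM21 the printed Arid5b stretch lies upstream of the gene, and the first printed Sbno2 stretch overlaps an exon of a transcript. The second Sbno2 stretch and that of Socs3 lie in introns. A match in these letters is not a binding site, and the windows of Batf, Il22, Elovl6 and the others without one were searched no further.

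The type 17 list came next, with a median log2 ratio of 0.62. Batf and Ahr, both higher, are in this list and the STAT3 list, so the 2 lists are not separate observations. Among all measured genes, 4.99% were higher and 7.77% lower. Of the list's 17 measured genes, 9 were higher, among them Il17a, Il17f, Il22, Il23r, Il1r1, Ahr, Batf and Irf4, and 1, Ccl20, was lower. Il17a is among them for all members pooled, and without members that had a Kit UMI the list's median was 0.12. Of 13 genes of receptors for IL-23 and related cytokines only Il23r passed 1.5-fold. Stat3 itself stood at 532 and 401 CPM, Jak2 at 220.4 and 201 CPM, and Il12rb1, the shared receptor chain, was too low to be measured, at 7.71 and 7.35 CPM.

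Lists tied to the T cell receptor stayed near the median of all genes. Among 14 early genes of receptor activation, 2 were higher (Irf4 and Myc) and 0 lower, with a median of 0.00. The shares over all measured genes were 4.99% higher and 7.77% lower. Of 16 measured receptor and CD3 genes, Cd2 was higher, at 242 and 147 CPM, and Cd6 lower, at 101 and 158 CPM. Co-inhibitory receptors had 0 of 5 past 1.5-fold in either direction. Ctla4 stood at 1187 CPM (1117 to 1260) in stimulated and 994 CPM (939 to 1052) in unstimulated members. In gamma delta T cells Ctla4 stood at 874 and 205 CPM, so its ratio was 1.19-fold in alpha beta and 4.26-fold in gamma delta T cells. Alpha beta T cells stood 1.36-fold above gamma delta T cells in the stimulated and 4.84-fold in the unstimulated library. The difference between the ratios was not tested.

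Of 11 measured regulatory T cell genes, Tnfrsf4 was higher and Areg lower, against 4.99% higher and 7.77% lower among all measured genes. Tnfrsf4 stood at 339 CPM (303 to 380) in stimulated and 185 CPM (161 to 210) in unstimulated members. Of 11 co-stimulatory genes, Tnfrsf4 and Cd2 were higher and Cd27 lower, at 13.2 and 37.6 CPM. Tnfsf8, outside these lists, stood at 557 and 352 CPM. Glycolysis genes had 0 of 11 past 1.5-fold, with a median of 0.04. Of 9 BCL2 family genes only Bcl2l11, the death gene BIM, was higher, at 239 and 129.9 CPM. Interferon response genes were split, with Irf1 and Gbp2 higher and Irf7 and Oasl2 lower among 11.

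The other lists are set beside all measured genes, of which 4.99% were higher and 7.77% lower. Of 8 innate-like genes Sh2d1a and Plac8 were lower, of 9 heat shock genes Hspa1a and Hspd1, and of 10 gut homing genes Ccr9 and Cxcr4. Of 4 follicular helper genes Sh2d1a was lower. Of 7 type 1 and cytotoxic genes Il18rap was higher and Nkg7 and Ccl5 lower, with a median of 0.06 but a mean of -0.95, with Ccl5 at 1.10 CPM in stimulated and 273 CPM in unstimulated members. The type 2 and naive lists, with 2 and 4 genes measured, had none.

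**Figure D5:**
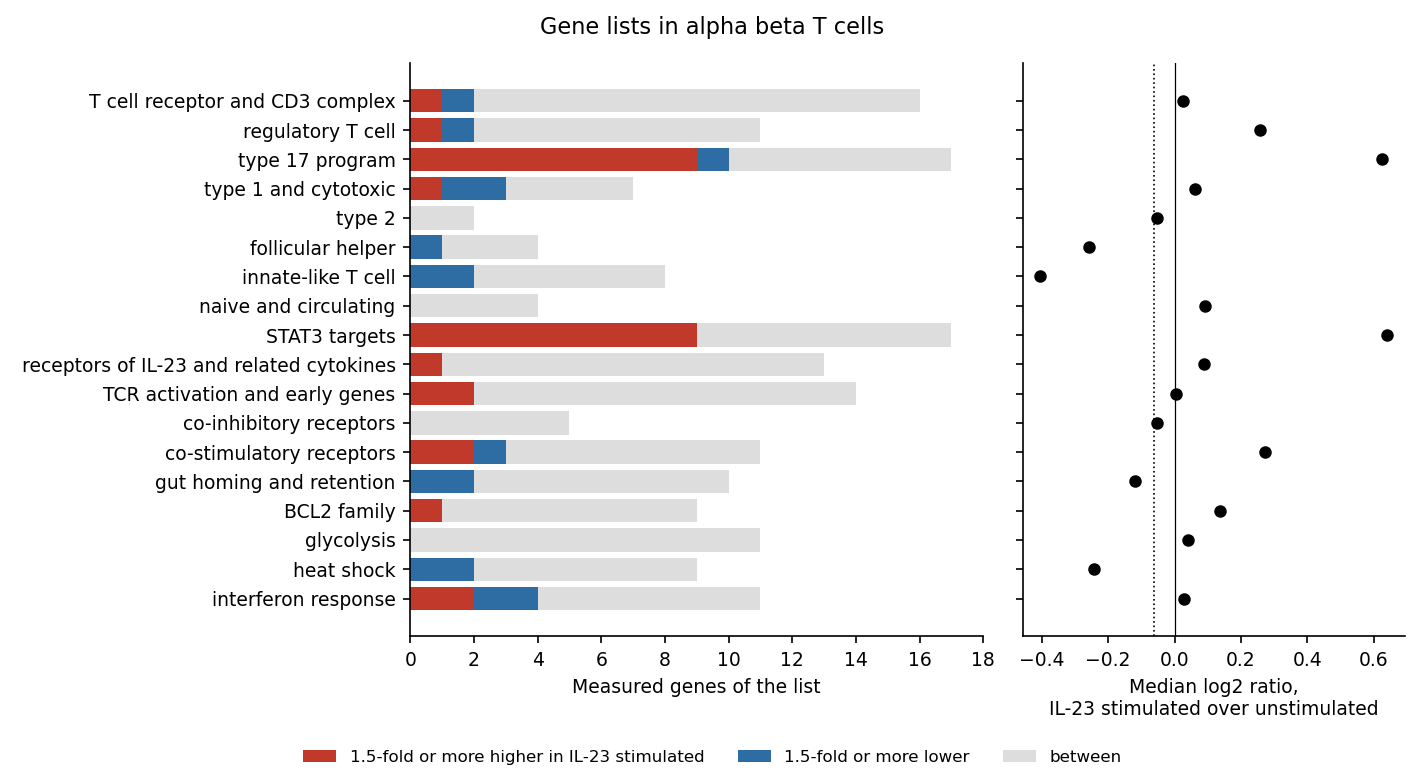
For each of 18 gene lists, the number of measured genes at least 1.5-fold higher, at least 1.5-fold lower or between in IL-23 stimulated over unstimulated alpha beta T cells (left, bars), and the list's median log2 ratio (right, points); the dotted line marks the median of all measured genes, -0.06. The STAT3 and type 17 lists stand furthest to the right, at 0.64 and 0.62, and the innate-like list furthest to the left, at -0.40.

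Several of the genes furthest lower in stimulated members by the naming rule were carried by few cells. Ccl20, the CCR6 ligand made by type 17 cells, stood at 26.4 CPM (16.9 to 39.4) in stimulated and 151 CPM (130.1 to 175) in unstimulated members, 5.61-fold lower (3.72 to 9.15). It was detected in 6 of 94 and 19 of 155 members. Gamma delta T cells and B-lineage cells held 0 UMIs of Ccl20 in both libraries, and cells with no CD3 chain UMI held 0.178 and 0.694 CPM. With 3 UMIs put in place of the 0 of each gamma delta library, Ccl20 was 15.0-fold and 74.9-fold higher in alpha beta T cells. Ccr9, the small intestine homing receptor, stood at 14.3 and 76.0 CPM and was detected in 6 and 21 members. Without Cd4 the ratios of Ccl20 and Ccr9 were smaller, at -0.999 and -0.907 on the log2 scale, against -2.49 and -2.36 for all members.

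Areg, the tissue repair growth factor amphiregulin, stood at 92.6 and 447 CPM, but 1 unstimulated cell held 440 of the 547 UMIs, and without the top cell of each library the log2 ratio was -0.81, against -2.26 with them. Among members with no Cd4 UMI Areg was higher in the stimulated library, at 108 CPM (77.3 to 146) against 76.6 CPM (55.0 to 104), with overlapping intervals. Cxcl3, a neutrophil chemokine, stood at 58.4 and 229 CPM, with 150 of 280 unstimulated UMIs in 1 cell. Hopx, a homeobox co-factor of persistent effector T cells, stood at 51.8 and 167 CPM and was detected in 21 and 38 members. Ccl5, which the naming rule left out, had 334 UMIs in 2 unstimulated cells and 1 UMI in stimulated cells.

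The others lower by the rule were Gm10076, Ap2a2, Gm45716, Pou2f2 and Slc16a10. Gm10076 stood at 380.2 and 1801 CPM in members, and at 326 and 1637 CPM in gamma delta T cells, 293 and 1437 CPM in cells with no CD3 chain UMI and 314 and 1562 CPM in B-lineage cells. It was thus lower by about the same ratio in every class. Pou2f2, the OCT2 factor, stood at 24.2 and 68.6 CPM and Slc16a10, an aromatic amino acid transporter, at 23.1 and 65.4 CPM. Ap2a2, an endocytic adaptor, stood at 13.2 and 50.6 CPM.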

How the data were processed

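Droplet-based single-cell RNA sequencing (10x Genomics) of sorted Il23r-eGFP+ small-intestinal cells was deposited as 1 matrix of UMI counts per library; per the submitters' processing notes Cell Ranger 3.1.0 and mm10 were used, while the deposited matrix headers name cellranger 6.0.0. The deposited counts are whole UMI counts per gene and barcode, not normalized. Members and gene lists were chosen with earlier results of these data known. Sums per class and library were expressed as CPM, and log2 ratios were taken after adding 0.5 UMI to each sum. Genes entered a comparison with 50 UMIs over the pair of sums and a level of 20 CPM or more on either side. Intervals are exact Poisson or Clopper-Pearson, at 95%. Named genes were the 12 highest and 10 lowest ratios between libraries, and 10 in each direction between classes, with at least 50 CPM, intervals apart and a UMI in at least 10% of cells of the higher group. Receptor segments and mitochondrial genes were left out, and genes of the listed sets were named beside them. B-lineage cells had at least 3 UMIs over Cd79a, Cd79b, Ebf1 and Ms4a1 and no CD3 chain UMI. They took in the deepest kept cell of each library, at 47655 stimulated and 54616 unstimulated UMIs. The class sums were 244848 and 398188 UMIs, and the part of doublets in them was not tested. Thinning drew 3000 UMIs per cell without replacement. No doublet caller was run; leaving out the 5% of members with most UMIs was an alternative. Other alternatives changed the filters, the Trac and Trbc conditions, scaling, fold and low-count limits. Gene positions are from GENCODE vM21 by gene ID, and start windows from RefSeq. The ratio step was tested on simulated Poisson sums. These hold no spread between cells, so genes carried by few cells were not covered. Python 3.11.15, numpy 2.4.6, scipy 1.17.1, pandas 2.3.3 and matplotlib 3.10.9 were used.
Some splits of the members, named in the closing section, were chosen after seeing the data. Some genes of the lists are counted but not reported here by name.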

Additional observations from a re-analysis of the deposited data

Results flagged for a closer look

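Mcm3, a subunit of the replicative helicase and 1 of the cycling markers, was, among the listed or named genes measured in both classes, the only one at least 1.5-fold apart between the libraries in opposite directions in alpha beta and gamma delta T cells. In alpha beta T cells it stood at 38.6 CPM in the IL-23 stimulated and 65.4 CPM in the unstimulated library, a log2 ratio of -0.75, and in gamma delta T cells at 29.9 and 13.5 CPM, a log2 ratio of 1.13. It was detected in 17 of 94 and 25 of 155 alpha beta T cells, and 1 unstimulated cell held 36 of its 80 UMIs. Its Poisson intervals in alpha beta T cells overlapped, and the difference between the classes was not tested.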

How the results depend on the processing

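No paired analysis was possible because each condition is 1 library. Alternatives that split the members by Cd4, Zbtb16, Kit or cycling genes, left out shared barcodes or the top cell of a gene, or changed the gene and mitochondrial limits of the gene counts, were chosen after seeing the data. Members with a Foxp3 UMI alone were not run, at 0 and 2 cells.

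With at least 2 Trac UMIs required, members were 0.735% of stimulated and 0.918% of unstimulated cells, and Cd8a was at 0 in stimulated members. Thinning gave Cd4 in 32.3% and 29.1%, Zbtb16 in 5.38% of stimulated members, Foxp3 in 0 of 151 unstimulated members, and Cd8a in 0 and Il21 in 1.08% of stimulated members. Zbtb16 stood at 13.8% of unstimulated members with no Kit UMI. Counts of genes higher and lower in stimulated members were 2164 and 3179 with no low-count filter, 166 and 192 at 50 CPM, 132 and 142 with Poisson intervals apart and 60 and 84 at 2-fold, and 250 genes were lower in members with no Kit UMI. The other alternatives gave 186 to 307 higher and 290 to 466 lower genes. The counts against gamma delta T cells ran between 185 and 233 over 10 alternatives. Of the list medians, type 1 and cytotoxic genes stood at 1.01 in members with Cd4, type 2 genes at -0.72 in members without Cd4 and follicular helper genes at 0.35 in members with no Kit UMI. The STAT3 list stayed between 0.54 and 0.87 and the type 17 list between 0.12 and 0.79 over 19 alternatives each.

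Of genes past 1.5-fold, Il17a changed sign to a log2 ratio of -0.28 in members with Cd4 and -0.79 in members with no Kit UMI, and Areg to 0.49 in members without Cd4. Of genes under 1.5-fold, Ctla4 went to -0.09 with at least 2 Trac UMIs and Gzma to -0.23 without its top cells. The cause was not tested. Depth limits the rare genes most: 1775 of the 5073 measured genes had fewer than 100 UMIs, and 373 of the 647 genes past 1.5-fold had overlapping Poisson intervals.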
